A study of Homo sapiens with 6 samples.

Results

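The genes described here are 34 genes of epithelial cell-cell contact, chosen by name from the 58735 genes of the deposited table. They comprise 10 genes of adherens junctions, 15 of tight junctions and apical polarity, 4 connexins of gap junctions, and 5 genes of the epithelial splicing and membrane protease machinery that accompany them. The cells are KYSE30, an established line from a human oesophageal squamous cell carcinoma. The si-RAB23-1 and si-RAB23-9 groups had each received an siRNA against RAB23, and the si-NC group a control siRNA. Every group had 2 libraries, and the siRNA was used at 100 nM with a lipid reagent. Total RNA was taken near 80% confluence. The study put each RAB23 siRNA against si-NC to ask what changes in these cells when RAB23 is lowered. All 6 libraries come from this 1 line, and the sources used here do not give the siRNA sequences or the hours from transfection to harvest. The submitters describe the libraries of a group as biological replicates without saying that they were separate cultures, so the p-values reflect only how far these libraries differ, and part of that spread may be technical.

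Adherens junctions hold neighbouring epithelial cells together through cadherins, whose tails bind catenins and through them actin, and through nectins, which bind the scaffold afadin. Tight junctions lie nearer the apical surface and seal the space between cells with strands of claudins, anchored by scaffold proteins and placed by polarity complexes. Gap junctions are clusters of channels built from connexins, which let small molecules pass between cells. In squamous epithelium P-cadherin marks the basal layer, and loss of E-cadherin is a textbook sign of epithelial-mesenchymal transition.

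RAB23, whose small GTPase product is best known for restraining the Hedgehog pathway, was at 1.03 and 1.10 FPKM with si-RAB23-1, 1.18 and 1.27 FPKM with si-RAB23-9, and 3.27 and 3.33 FPKM with si-NC, so that no siRNA library reached the control level. FPKM, the deposited unit, is the fragment count scaled to gene length and library size. RAB23 fell by 1.06 on the log2(FPKM + 1) scale with si-RAB23-1 (SE 0.0815, limma adjusted p = 0.00314) and by 0.95 with si-RAB23-9 (SE 0.0815, limma adjusted p = 0.00392), and both calls held with any 1 library left out. All fold changes below are on this scale, which understates the change of genes at low levels, and a gene was called at an adjusted p under 0.05 over the 14352 genes tested. The libraries held between 17211025 and 24178125 reads recovered from the FPKM values. Of 9 squamous markers, 7 were at 1 FPKM or more in at least 1 library, while KRT5, a basal keratin, was listed at 0.0394 to 0.272 FPKM in the 6 libraries. The summed level of the squamous list was 144 and 163 FPKM with si-RAB23-1, 133 and 135 FPKM with si-RAB23-9, and 87.4 and 99.8 FPKM with si-NC. This list therefore differed between the siRNA and control libraries without overlap, and its part in the results below was not tested. Of 8 fibroblast markers, 5 were at 0 in all libraries (summed 3.44 to 3.92 FPKM), leukocyte markers summed to 0.530 to 0.962 FPKM, columnar markers to 0.645 to 1.19 FPKM and endothelial markers to 2.15 to 4.51 FPKM. In bulk RNA, fewer cells of a type and less RNA per cell cannot be told apart.

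KYSE30 cells carried most of the machinery. The filter of 1 FPKM in at least 2 libraries was passed by 32 of the 34 genes. The 2 below it were PARD3, a polarity scaffold gene, at 0.559 to 0.780 FPKM, and the connexin gene GJB6 at 0.238 to 0.610 FPKM, and neither was tested. With si-NC the highest mean levels were those of SPINT2 (104 FPKM), CLDN4 (102), LSR (102), CDH1 (86.7), EPCAM (84.9), CTNND1 (83.7), CDH3 (82.9) and CTNNA1 (74.3), which lie close together. The lowest among tested genes were PARD6B (3.48 FPKM), MARVELD3 (4.72), MARVELD2 (4.87), OCLN (5.21), GJB2 (6.17), CLDN12 (6.95) and GJA1 (7.04). E-cadherin and P-cadherin transcripts thus stood at nearly the same level in control cells. The summed level of the 34 genes was 1293 and 1314 FPKM with si-RAB23-1, 1309 and 1320 FPKM with si-RAB23-9, and 1265 and 1241 FPKM with si-NC.

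**Figure D1:**
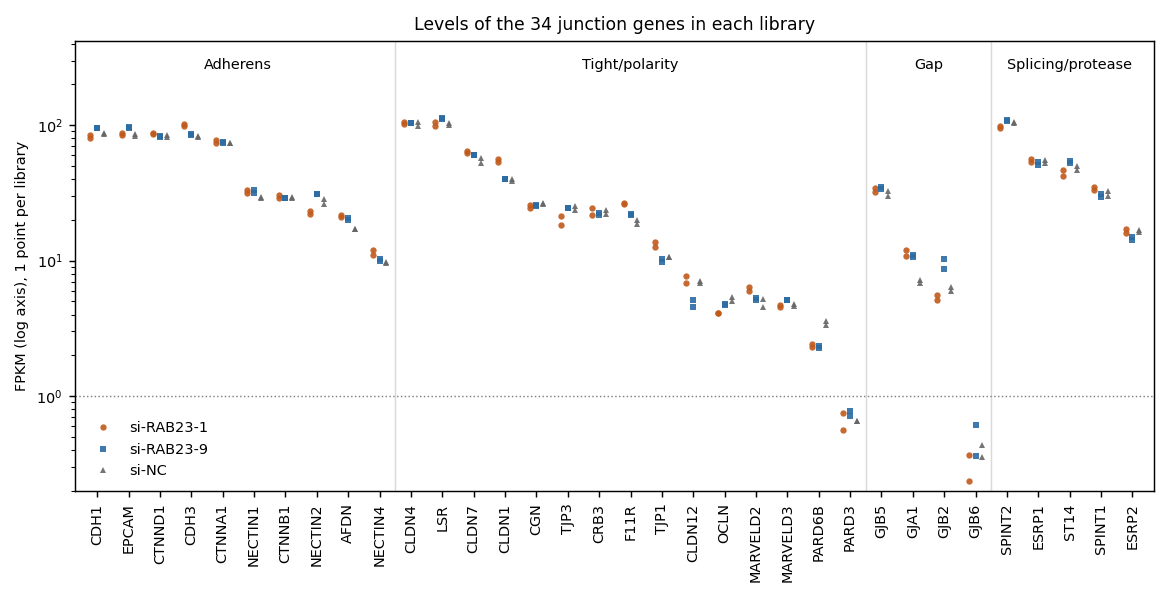
FPKM on a log axis of the 34 genes, 1 point per library (circles si-RAB23-1, squares si-RAB23-9, triangles si-NC), ordered within each role by the mean with si-NC. PARD3 and GJB6 lie below the dotted line at 1 FPKM in every library, and the points of most other genes lie close together.

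With si-RAB23-1, 9 of the 32 tested genes rose and 3 fell. Over all genes tested, 8.13% were called higher and 7.26% lower in that comparison. With si-RAB23-9, 5 rose and 2 fell, where 7.56% of all genes were called higher and 5.69% lower. The median log2 fold change of the 32 genes was 0.02 with si-RAB23-1 and 0.04 with si-RAB23-9, beside 0.008 and 0.006 over all genes tested. Tested directly, si-RAB23-9 over si-RAB23-1, 7 of the 32 were higher and 5 lower, where 11.1% of all genes were called higher and 9.89% lower. Called shares also depend on the level of a gene, since a highly expressed gene has a smaller error here, and this was not adjusted for. The comparisons with si-NC share the same 2 control libraries, so the values for both siRNAs are set side by side below and are not independent of each other. Altogether 19 of the 32 were called in at least 1 of the 3 comparisons, against 30.7% of all genes tested.

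**Figure D2:**
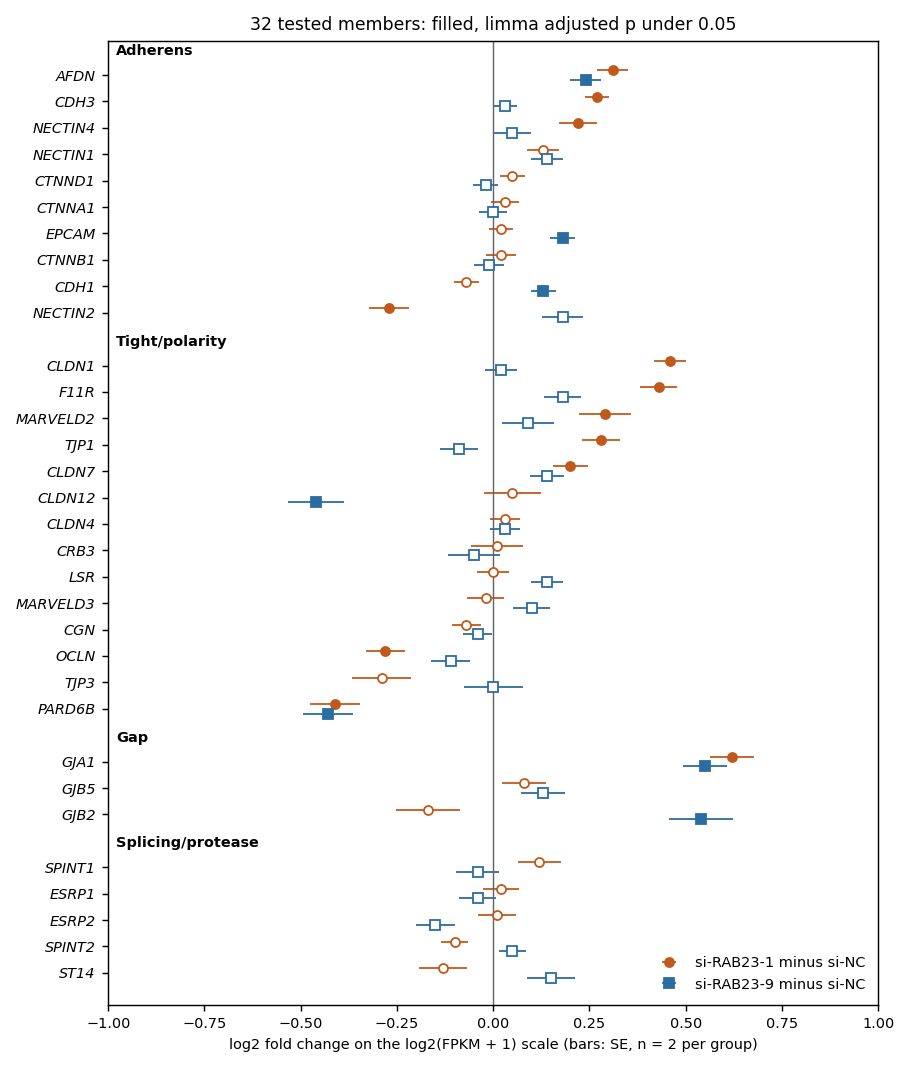
Log2 fold change over si-NC, on the log2(FPKM + 1) scale, of the 32 tested genes (circles si-RAB23-1, squares si-RAB23-9, bars SE, n = 2 libraries per group), filled where the limma adjusted p was under 0.05. The values run between -0.46 for CLDN12 with si-RAB23-9 and 0.62 for GJA1 with si-RAB23-1, and both siRNAs are filled on the same side for AFDN, PARD6B and GJA1.

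Among the adherens junction genes the cadherins moved differently with each siRNA. CDH3 (chromosome 16, 68636189 to 68722616), which encodes P-cadherin, rose with si-RAB23-1, and CDH1 (chromosome 16, 68737225 to 68835548), which encodes E-cadherin, rose slightly with si-RAB23-9. CDH3 was at 99.0 and 102 FPKM with si-RAB23-1, 85.5 and 84.4 FPKM with si-RAB23-9, and 83.3 and 82.5 FPKM with si-NC. The si-RAB23-1 libraries stood above all others, at 1.21 times the control mean (log2 fold change 0.27, SE 0.0305, limma adjusted p = 0.00601), while the value with si-RAB23-9 was 0.03 (limma adjusted p = 0.513). CDH1 was at 80.9 and 84.0 FPKM with si-RAB23-1, 94.8 and 95.8 FPKM with si-RAB23-9, and 86.1 and 87.3 FPKM with si-NC. Its 2 si-RAB23-9 libraries were the highest and its 2 si-RAB23-1 libraries the lowest of the 6. The log2 fold change was 0.13 with si-RAB23-9 (SE 0.0320, limma adjusted p = 0.0485) and -0.07 with si-RAB23-1, a value that missed the threshold (limma adjusted p = 0.190). Between the siRNAs CDH1 differed by 0.21 (limma adjusted p = 0.0117) and CDH3 by -0.24 (limma adjusted p = 0.00695), si-RAB23-9 over si-RAB23-1. The ratio of CDH3 to CDH1 FPKM was accordingly 1.22 and 1.21 with si-RAB23-1, 0.901 and 0.882 with si-RAB23-9, against 0.967 and 0.944 with si-NC. P-cadherin transcript therefore exceeded E-cadherin transcript in the si-RAB23-1 libraries and in no other. The CDH3 call was lost without either si-NC library (limma adjusted p up to 0.0563), and that of CDH1 with si-RAB23-9 without any si-RAB23-9 or si-NC library (up to 0.225). It was also lost after median-of-ratios scaling and with the replicate number as a block. Both differences between the siRNAs were lost without either si-RAB23-9 library, with limma adjusted p up to 0.0849 for CDH1 and 0.0619 for CDH3.

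EPCAM (chromosome 2, 47345158 to 47387601) encodes an epithelial adhesion molecule that also stabilises claudins. It was at 87.1 and 85.0 FPKM with si-RAB23-1, 95.1 and 96.8 FPKM with si-RAB23-9, and 85.9 and 83.9 FPKM with si-NC, and rose with si-RAB23-9 (log2 fold change 0.18, SE 0.0313, limma adjusted p = 0.0221) but not detectably with si-RAB23-1 (0.02, limma adjusted p = 0.720). The siRNAs differed for it by 0.16 (limma adjusted p = 0.0233). CDH1 and EPCAM thus both had their highest libraries with si-RAB23-9. For EPCAM the call over si-NC was lost without any si-RAB23-9 or si-NC library (limma adjusted p up to 0.145), and the difference between the siRNAs without any library other than si-RAB23-1 replicate 1 (up to 0.142). The catenins, which couple the cadherin tail to actin, were not called in any comparison. CTNNB1 (beta-catenin) lay at 28.8 to 30.3 FPKM over the 6 libraries, CTNNA1 (alpha-catenin) at 74.0 to 78.1 FPKM and CTNND1 (p120 catenin) at 81.5 to 87.0 FPKM. Their log2 fold changes over si-NC with si-RAB23-1 were 0.02, 0.03 and 0.05, and those with si-RAB23-9 were -0.01, 0.00 and -0.02, each with an SE of 0.0320 to 0.0387.

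Nectins are immunoglobulin-like adhesion molecules, and afadin links them to actin. AFDN (chromosome 6, 167826922 to 167972023), the afadin gene, rose with both siRNAs. It was at 21.9 and 21.0 FPKM with si-RAB23-1, 20.0 and 20.8 FPKM with si-RAB23-9, and 17.2 and 17.0 FPKM with si-NC, so that all 4 siRNA libraries exceeded both control libraries. The log2 fold change was 0.31 with si-RAB23-1 (SE 0.0403, limma adjusted p = 0.00935) and 0.24 with si-RAB23-9 (SE 0.0403, limma adjusted p = 0.0187). The siRNAs differed by -0.07 (limma adjusted p = 0.281). The call with si-RAB23-1 was lost without either si-NC library (limma adjusted p up to 0.0712), and the call with si-RAB23-9 without any si-RAB23-9 or si-NC library (up to 0.122).

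NECTIN2 (chromosome 19, 44846175 to 44889228) was at 22.1 and 23.2 FPKM with si-RAB23-1, 31.2 and 31.2 FPKM with si-RAB23-9, and 28.7 and 26.3 FPKM with si-NC. The groups did not overlap, with si-NC in the middle. NECTIN2 fell with si-RAB23-1 (log2 fold change -0.27, SE 0.0520, limma adjusted p = 0.0251), while the 0.18 with si-RAB23-9 missed the threshold (limma adjusted p = 0.0823). The difference of 0.45 between the siRNAs (limma adjusted p = 0.00537) held with any 1 library left out (up to 0.0463), whereas the fall with si-RAB23-1 was lost without any library other than si-RAB23-1 replicate 2 (up to 0.109). NECTIN4 (chromosome 1, 161070995 to 161089599), a nectin of embryonic and tumour epithelium, was at 11.9 and 11.1 FPKM with si-RAB23-1, 10.3 and 9.99 FPKM with si-RAB23-9, and 9.63 and 9.83 FPKM with si-NC. It rose with si-RAB23-1 (log2 fold change 0.22, SE 0.0487, limma adjusted p = 0.0374) and was at 0.05 with si-RAB23-9 (limma adjusted p = 0.536). The rise was also a call lost without any library other than si-RAB23-1 replicate 2, and with the replicate number as a block. NECTIN1 was higher in all 4 siRNA libraries, at 31.5 to 33.2 FPKM against 29.2 and 29.4 FPKM with si-NC, without passing the test (0.13 and 0.14 on the log2 scale, limma adjusted p = 0.0833 and 0.0746). With si-RAB23-1, NECTIN2 and NECTIN4 thus moved in opposite directions, and the summed level of the 3 nectin genes was 65.5 and 67.3 FPKM with si-RAB23-1, 73.2 and 74.4 FPKM with si-RAB23-9, and 67.5 and 65.5 FPKM with si-NC.

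Of the 14 tested tight junction and polarity genes, 5 rose and 2 fell with si-RAB23-1, and 0 rose and 2 fell with si-RAB23-9 by limma. The shares over all genes tested were 8.13% higher and 7.26% lower with si-RAB23-1, and 7.56% higher and 5.69% lower with si-RAB23-9. For that count of 0, there were 3 genes higher at an unadjusted p under 0.05 and 3 by voom on the recovered reads (CLDN7, F11R and LSR). Claudins form the sealing strands, and CLDN1 (chromosome 3, 190305701 to 190322475) encodes the barrier claudin of stratified epithelium. It was at 56.6 and 53.1 FPKM with si-RAB23-1, 40.1 and 40.0 FPKM with si-RAB23-9, and 39.0 and 40.0 FPKM with si-NC. The si-RAB23-1 libraries stood alone, at 1.39 times the control mean (log2 fold change 0.46, SE 0.0413, limma adjusted p = 0.00386), while the other 4 libraries lay within 39.0 to 40.1 FPKM. The value with si-RAB23-9 was 0.02 (limma adjusted p = 0.800), and the siRNAs differed by -0.44 (limma adjusted p = 0.00312). Both CLDN1 calls held with any 1 library left out (up to 0.0423 and 0.0331) and under every other setting tried. CLDN1 made up 22.3% ± 1.05 of the summed claudin FPKM with si-RAB23-1, 17.4% ± 0.139 with si-RAB23-9, against 17.6% ± 1.08 with si-NC (mean and SD, n = 2 each).

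CLDN7 (chromosome 17, 7259903 to 7263983) was at 64.0 and 62.6 FPKM with si-RAB23-1, 60.7 and 60.4 FPKM with si-RAB23-9, and 57.3 and 52.8 FPKM with si-NC. It rose with si-RAB23-1 (log2 fold change 0.20, SE 0.0450, limma adjusted p = 0.0385), a call lost whichever library was left out (up to 0.147), and was at 0.14 with si-RAB23-9 (limma adjusted p = 0.108). Its position overlaps ELP5 on the other strand, at mean levels of 11.9, 13.6 and 11.7 FPKM with si-RAB23-1, si-RAB23-9 and si-NC, and the sources used here do not say whether the libraries were stranded, so reads of the 2 genes may be mixed. CLDN12 (chromosome 7, 90383721 to 90513402) encodes a claudin that lacks the usual PDZ-binding tail. It was at 7.66 and 6.85 FPKM with si-RAB23-1, 5.08 and 4.52 FPKM with si-RAB23-9, and 6.80 and 7.09 FPKM with si-NC. Both si-RAB23-9 libraries lay below the other 4, a fall to 0.691 times the control mean (log2 fold change -0.46, SE 0.0731, limma adjusted p = 0.0164), and CLDN12 was lower with si-RAB23-9 than with si-RAB23-1 by 0.51 on the log2 scale (log2 fold change -0.51, limma adjusted p = 0.00952). The first call was lost without any si-RAB23-9 or si-NC library (up to 0.101) and the second without si-RAB23-9 replicate 2 (0.0581). CLDN12 shares a same-strand stretch with GTPBP10, listed at 1.93 to 2.19 FPKM in the group means. CLDN4, the most abundant claudin transcript, was at 99.4 to 106 FPKM and was not called, with log2 fold changes of 0.03 with either siRNA (SE 0.0396).

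Occludin, tricellulin and MARVELD3 are the MARVEL-domain proteins of the tight junction. OCLN (chromosome 5, 69492292 to 69558104) was at 4.10 and 4.10 FPKM with si-RAB23-1, 4.74 and 4.74 FPKM with si-RAB23-9, and 5.38 and 5.05 FPKM with si-NC, and fell with si-RAB23-1 (log2 fold change -0.28, SE 0.0504, limma adjusted p = 0.0200). With si-RAB23-9 the value was -0.11 (limma adjusted p = 0.207). MARVELD2 (chromosome 5, 69415065 to 69444330), the tricellulin gene of contacts between 3 cells, was at 6.39 and 5.93 FPKM with si-RAB23-1, 5.34 and 5.11 FPKM with si-RAB23-9, and 4.57 and 5.17 FPKM with si-NC. It rose with si-RAB23-1 (log2 fold change 0.29, SE 0.0683, limma adjusted p = 0.0436) and was at 0.09 with si-RAB23-9 (limma adjusted p = 0.464). Occludin and tricellulin transcripts thus went opposite ways with si-RAB23-1, although both calls were lost whichever library was left out (limma adjusted p up to 0.116 and 0.179), and that of MARVELD2 also with the replicate number as a block. MARVELD3 was at 4.56 to 5.14 FPKM and was not called.

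Scaffold proteins tie the strands to actin. TJP1 (chromosome 15, 29699367 to 29968865), which encodes ZO-1, was at 13.7 and 12.7 FPKM with si-RAB23-1, 10.2 and 9.78 FPKM with si-RAB23-9, and 10.6 and 10.7 FPKM with si-NC. It rose with si-RAB23-1 (log2 fold change 0.28, SE 0.0493, limma adjusted p = 0.0198), was at -0.09 with si-RAB23-9 (limma adjusted p = 0.304), and differed between the siRNAs by -0.37 (limma adjusted p = 0.00801). Its paralogue TJP3, which encodes ZO-3, went the other way: 18.4 and 21.5 FPKM with si-RAB23-1, 24.5 and 24.6 FPKM with si-RAB23-9, and 25.3 and 23.7 FPKM with si-NC. TJP3 was not called over si-NC (-0.29 and 0.00 on the log2 scale, limma adjusted p = 0.0596 and 0.984), but was higher with si-RAB23-9 than with si-RAB23-1 by 0.29 (SE 0.0768, limma adjusted p = 0.0486). The TJP1 call over si-NC was lost without si-RAB23-1 replicate 1 or either si-NC library (up to 0.107), and its difference between the siRNAs without si-RAB23-9 replicate 2 (0.0597). The TJP3 difference was lost without any library other than si-RAB23-1 replicate 2 (up to 0.177) and with the replicate number as a block. CGN (cingulin) lay at 24.4 to 26.6 FPKM and LSR, the tricellular receptor gene also called angulin-1, at 98.3 to 112 FPKM. Neither was called in any comparison.

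F11R (chromosome 1, 160995211 to 161021348) encodes JAM-A, an immunoglobulin-like molecule that recruits polarity proteins to the junction. It was at 26.4 and 26.4 FPKM with si-RAB23-1, 22.2 and 21.6 FPKM with si-RAB23-9, and 18.5 and 20.1 FPKM with si-NC. The 3 groups formed separate steps, with si-RAB23-1 highest and si-NC lowest. F11R rose with si-RAB23-1 to 1.37 times the control mean (log2 fold change 0.43, SE 0.0479, limma adjusted p = 0.00593), a call that held with any 1 library left out (up to 0.0430). The 0.18 with si-RAB23-9 missed the threshold (limma adjusted p = 0.0674), and the siRNAs differed by -0.26 (limma adjusted p = 0.0190), a difference lost without si-RAB23-1 replicate 1 or either si-RAB23-9 library (up to 0.109). PARD6B (chromosome 20, 50731544 to 50756795), an adaptor of the PAR-aPKC polarity complex, was the tight junction and polarity gene that fell with both siRNAs. It was at 2.43 and 2.31 FPKM with si-RAB23-1, 2.27 and 2.36 FPKM with si-RAB23-9, and 3.59 and 3.37 FPKM with si-NC, and all 4 siRNA libraries lay under both control libraries. The means were 0.681 and 0.666 times the control (log2 fold changes -0.41 and -0.43, SE 0.0647 each, limma adjusted p = 0.0152 and 0.0137), resting on 190 to 405 reads per library. The call with si-RAB23-1 was lost without either of the si-NC libraries (up to 0.0985), and that with si-RAB23-9 without any si-RAB23-9 or si-NC library (up to 0.0940). PARD6B held 39.1% and 37.1% of the summed PARD6A, PARD6B and PARD6G FPKM with si-RAB23-1, 27.0% and 29.1% with si-RAB23-9, against 48.9% and 49.5% with si-NC. CRB3, an apical determinant, was at 21.8 to 24.6 FPKM and was not called.

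**Figure D3:**
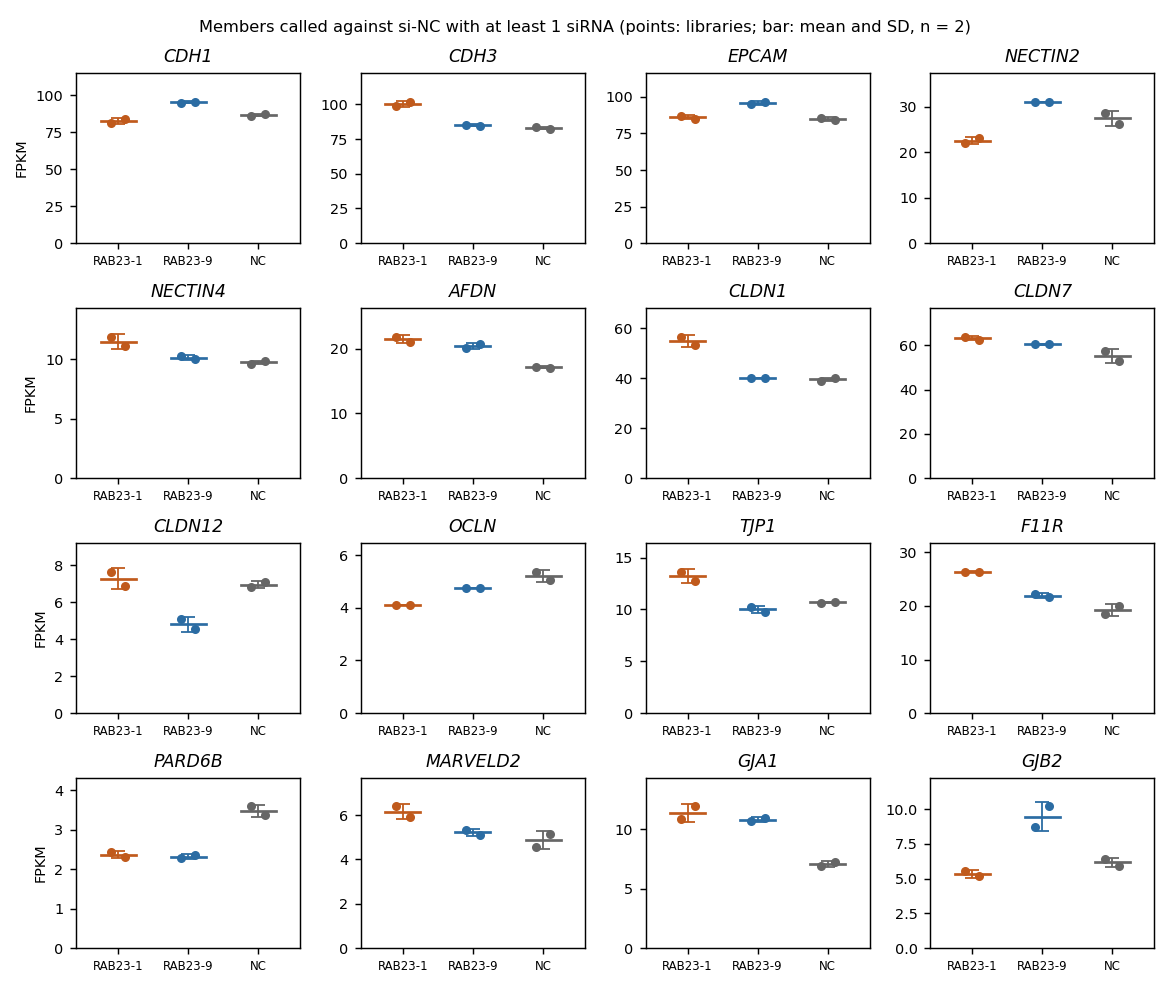
FPKM from 0 upward in each library of the 16 genes called over si-NC with at least 1 siRNA (points, libraries; bars, mean and SD, n = 2), from left to right si-RAB23-1, si-RAB23-9 and si-NC. In CLDN1 and CDH3 the si-RAB23-1 libraries stand alone, in GJB2 and CLDN12 the si-RAB23-9 libraries, and in AFDN, PARD6B and GJA1 all 4 siRNA libraries lie apart from si-NC.

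The connexins held the largest changes among the 32 tested genes in these comparisons. GJA1 (chromosome 6, 121435577 to 121449727) encodes connexin 43, the most widespread gap junction protein. It was at 10.8 and 11.9 FPKM with si-RAB23-1, 10.7 and 10.9 FPKM with si-RAB23-9, and 6.86 and 7.22 FPKM with si-NC. All 4 siRNA libraries exceeded both control libraries, at 1.61 and 1.53 times the control mean. The log2 fold change was 0.62 with si-RAB23-1 (SE 0.0572, limma adjusted p = 0.00402) and 0.55 with si-RAB23-9 (SE 0.0572, limma adjusted p = 0.00594), and the siRNAs differed by -0.07 (limma adjusted p = 0.451). The first call held with any 1 library left out (up to 0.0430), and the second was lost without si-RAB23-9 replicate 2 or si-NC replicate 1 (up to 0.0561). GJA1 made up 11.1% and 11.9% of the summed FPKM of all listed connexins with si-RAB23-1, 10.8% and 10.7% with si-RAB23-9, against 7.46% and 7.83% with si-NC.

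GJB2 (chromosome 13, 20187463 to 20193010) encodes connexin 26, a connexin of squamous epithelium. It was at 5.57 and 5.16 FPKM with si-RAB23-1, 8.73 and 10.2 FPKM with si-RAB23-9, and 6.42 and 5.93 FPKM with si-NC. Only the si-RAB23-9 libraries stood above the control, at 1.53 times its mean (log2 fold change 0.54, SE 0.0827, limma adjusted p = 0.0144), and the value with si-RAB23-1 was -0.17 (limma adjusted p = 0.219). The difference of 0.72 between the siRNAs (limma adjusted p = 0.00524) held with any 1 library left out (up to 0.0315), while the call over si-NC was lost without si-RAB23-9 replicate 2 or either si-NC library (up to 0.0913). The ratio of GJB2 to GJA1 FPKM was 0.515 and 0.434 with si-RAB23-1, 0.820 and 0.934 with si-RAB23-9, against 0.935 and 0.821 with si-NC, so the balance of the 2 connexin transcripts shifted with si-RAB23-1, where only GJA1 rose, and was close to the control values with si-RAB23-9, where both rose. GJB5, which encodes the skin connexin 31.1, was the most abundant of the 4 connexin genes at 30.2 to 34.9 FPKM and was not called (log2 fold changes 0.08 and 0.13, SE 0.0567).

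**Figure D4:**
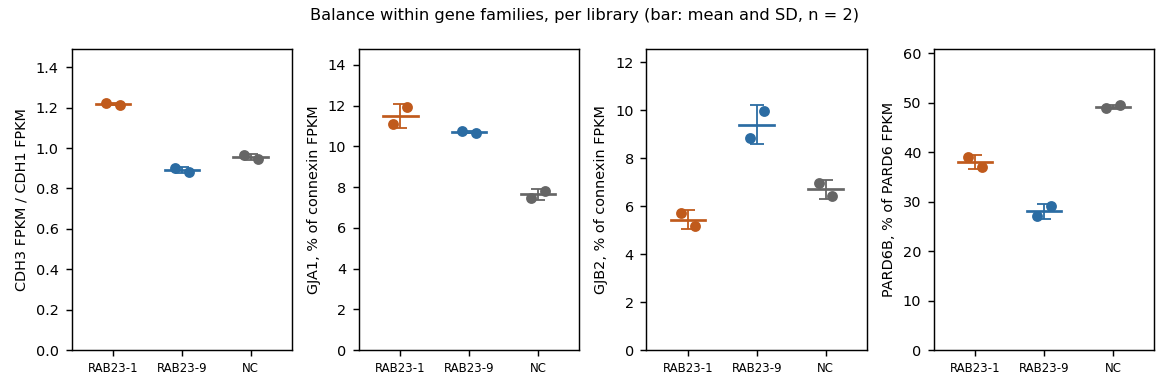
Ratio of CDH3 to CDH1 FPKM, share of GJA1 and of GJB2 in the summed connexin FPKM (percent) and share of PARD6B in the summed PARD6 FPKM (percent), from left to right in si-RAB23-1, si-RAB23-9 and si-NC libraries (points, libraries; bars, mean and SD, n = 2). The cadherin ratio is 1.22 and 1.21 with si-RAB23-1 and below 1 elsewhere, and the GJA1 share is above 10% in the 4 siRNA libraries alone.

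Of the genes that accompany these junctions, ESRP1 and ESRP2 encode the epithelial splicing regulators, and ST14 encodes matriptase, a membrane protease inhibited by the products of SPINT1 and SPINT2. None of the 5 was called by limma over si-NC with either siRNA, where with each siRNA 1 was lower at an unadjusted p under 0.05, and where voom with library totals as sizes called 2 lower with si-RAB23-1, and 1 higher and 1 lower with si-RAB23-9. ESRP1 lay at 51.1 to 56.5 FPKM, ESRP2 at 14.3 to 17.1 FPKM and SPINT1 at 29.4 to 35.2 FPKM. Between the siRNAs, ST14 was higher with si-RAB23-9, at 52.6 and 54.8 FPKM, than with si-RAB23-1, at 41.9 and 46.6 FPKM (log2 fold change 0.28, SE 0.0621, limma adjusted p = 0.0319), with 49.8 and 46.7 FPKM in the si-NC libraries. SPINT2 was at 107 and 109 FPKM with si-RAB23-9 and at 95.3 and 99.0 FPKM with si-RAB23-1 (log2 fold change 0.15, SE 0.0345, limma adjusted p = 0.0335), with 106 and 103 FPKM in the si-NC libraries. Both differences were lost without any library other than si-RAB23-1 replicate 2 (up to 0.154 and 0.180) and with the replicate number as a block. The ratio of ST14 to summed SPINT1 and SPINT2 FPKM was 0.326 and 0.347 with si-RAB23-1, 0.387 and 0.390 with si-RAB23-9, against 0.361 and 0.351 with si-NC.

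Other genes of the same structures were examined for context. Across all genes tested, 8.13% were called higher and 7.26% lower with si-RAB23-1. With si-RAB23-9 the shares were 7.56% and 5.69%. Of 16 other claudin genes 5 were tested, and CLDN9 was the only one called over si-NC, lower with both siRNAs at 3.06 and 3.18 FPKM with si-RAB23-1, 3.64 and 3.93 FPKM with si-RAB23-9, and 6.29 and 5.02 FPKM with si-NC (-0.68 and -0.47 on the log2 scale, limma adjusted p = 0.0121 and 0.0353). The first of these was lost without si-RAB23-1 replicate 1 (0.0576), the second without any library other than si-NC replicate 2 (up to 0.157). Of 17 other connexin and pannexin genes 6 were tested, and with si-RAB23-9 the connexin gene GJD3 (0.77, limma adjusted p = 0.0246) and the channel gene PANX2 (0.65, limma adjusted p = 0.0105) rose, both calls being lost without any si-RAB23-9 or si-NC library (up to 0.126 and 0.0749). None of the 6 was called with si-RAB23-1 by limma (at an unadjusted p under 0.05, 1 was higher and 1 lower, and voom called 0 higher and 1 lower). GJD3 was near the filter, at 0.757 and 0.867 FPKM with si-NC on 16 and 15 reads. With si-RAB23-9 it was at 1.79 and 2.42 FPKM on 30 and 38 reads. It overlaps AC080112.1 on the other strand, at mean levels of 6.36, 5.48 and 5.45 FPKM with si-RAB23-1, si-RAB23-9 and si-NC. GJD3 was at 0.50 with si-RAB23-1 (limma adjusted p = 0.0715). Its difference of 0.27 between the siRNAs missed the threshold (limma adjusted p = 0.237). PANX2 was at 0.11 with si-RAB23-1 (limma adjusted p = 0.423) and was higher with si-RAB23-9 than with si-RAB23-1 by 0.54 (limma adjusted p = 0.0133), a difference lost without si-RAB23-9 replicate 2 (0.0773).

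Of 30 other adherens junction genes 18 were tested. Beside the counts below, all genes tested were called higher in 8.13% and lower in 7.26% with si-RAB23-1. With si-RAB23-9 these shares were 7.56% and 5.69%. With si-RAB23-1, 2 rose and 3 fell, and those that fell were the endothelial cadherin gene CDH5 (-0.77, limma adjusted p = 0.0112), the p120-like catenin gene ARVCF (-0.45, limma adjusted p = 0.00935) and the vinculin gene VCL (-0.22, limma adjusted p = 0.0260). With si-RAB23-9, 0 rose by limma (0 at an unadjusted p under 0.05 and 0 by voom) and 4 fell: AJUBA (-0.63, limma adjusted p = 0.00377), whose product is a LIM protein at junctions, the alpha-catenin-like gene CTNNAL1 (-0.31, limma adjusted p = 0.0108), VCL (-0.24, limma adjusted p = 0.0210) and the alpha-actinin gene ACTN4 (-0.15, limma adjusted p = 0.0304). The call of AJUBA held with any 1 library left out (up to 0.0393). CDH5 and ARVCF were lost without either of the si-NC libraries (up to 0.0736 and 0.0673). CTNNAL1, ACTN4 and VCL with si-RAB23-9 were lost without any si-RAB23-9 or si-NC library (up to 0.0840, 0.167 and 0.130), and VCL with si-RAB23-1 without any library other than si-RAB23-1 replicate 1 (up to 0.135).

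Of 39 other tight junction and polarity genes 27 were tested, with 3 higher and 3 lower with si-RAB23-1, and 2 higher and 4 lower with si-RAB23-9. The all-gene shares were 8.13% higher and 7.26% lower with si-RAB23-1, and 7.56% higher and 5.69% lower with si-RAB23-9. With si-RAB23-1 the largest were YBX3 (0.32, limma adjusted p = 0.00453), which encodes the ZO-1-associated factor ZONAB, the polarity gene SCRIB (0.27, limma adjusted p = 0.0379), the angiomotin-like gene AMOTL1 (0.27, limma adjusted p = 0.0162) and the scaffold gene DLG3 (-0.26, limma adjusted p = 0.0371). With si-RAB23-9 they were PARD6A (0.71, limma adjusted p = 0.0199), the adaptor gene CD2AP (-0.59, limma adjusted p = 0.00676), CXADR (-0.50, limma adjusted p = 0.0110), which encodes a tight junction receptor of the immunoglobulin family, and AMOTL2 (-0.37, limma adjusted p = 0.0170). PARD6A and PARD6B thus moved in opposite directions with si-RAB23-9. YBX3 with si-RAB23-1 held with any 1 library left out (up to 0.0486). AMOTL1 and CD2AP were lost without either of the si-NC libraries (up to 0.0946 and 0.0580), PARD6A and CXADR without any si-RAB23-9 or si-NC library (up to 0.112 and 0.0784), and AMOTL2 without si-RAB23-9 replicate 2 or either si-NC library (up to 0.101). SCRIB was lost without any library other than si-RAB23-1 replicate 1 (up to 0.175), and DLG3 without any other than si-RAB23-1 replicate 2 (up to 0.172).

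Regulators of epithelial identity gave a further setting. Of 24 epithelial transcription factor and surface protease genes 19 were tested, with 2 higher and 4 lower with si-RAB23-1, and 1 higher and 6 lower with si-RAB23-9. Across all genes tested the shares were 8.13% higher and 7.26% lower with si-RAB23-1, and 7.56% higher and 5.69% lower with si-RAB23-9. TP63, the master regulator of squamous epithelium, was at 19.7 and 19.1 FPKM with si-RAB23-1, 12.0 and 11.4 FPKM with si-RAB23-9, and 14.2 and 14.6 FPKM with si-NC. It rose with si-RAB23-1 (0.40, limma adjusted p = 0.00574) and fell with si-RAB23-9 (-0.28, limma adjusted p = 0.0156), with a difference between the siRNAs of -0.68 (limma adjusted p = 0.00142) that held with any 1 library left out (up to 0.0189). With si-RAB23-1 KLF5 rose (0.34, limma adjusted p = 0.00764), and EHF (-0.56, limma adjusted p = 0.0119) and the serine protease gene PRSS22 (-0.32, limma adjusted p = 0.0354) fell. With si-RAB23-9 TMPRSS11E (-0.63, limma adjusted p = 0.0363), PRSS22 (-0.34, limma adjusted p = 0.0332) and F2RL1 (-0.33, limma adjusted p = 0.0498), a protease-activated receptor gene, fell. The rise of TP63 with si-RAB23-1 was lost without si-NC replicate 1. The rise of KLF5 and the fall of EHF were lost without either of the si-NC libraries. The fall of TP63 with si-RAB23-9, like those of PRSS22 and TMPRSS11E, was lost without any si-RAB23-9 or si-NC library. PRSS22 with si-RAB23-1 and F2RL1 were lost whichever library was left out (up to 0.136 and 0.193).

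Repressors of E-cadherin varied in level and direction. ZEB1, ZEB2 and SNAI3 were under 1 FPKM in all libraries, ZEB1 at 0.0156 to 0.0768 FPKM, and were not tested. SNAI1 was at 1.32 and 1.47 FPKM with si-RAB23-1, 1.48 and 1.27 FPKM with si-RAB23-9, and 1.79 and 1.12 FPKM with si-NC, and was not called. SNAI2, which encodes Slug, rose with si-RAB23-1, at 11.62 and 10.99 FPKM with si-RAB23-1, 7.41 and 7.21 FPKM with si-RAB23-9, and 9.14 and 8.01 FPKM with si-NC (0.36, limma adjusted p = 0.0229). The siRNAs differed for SNAI2 by -0.57 (limma adjusted p = 0.00590), which held with any 1 library left out (log2 fold change -0.603 to -0.529). TWIST1 rose with si-RAB23-9, where it was at 4.11 and 5.02 FPKM, against 2.95 and 2.64 FPKM with si-NC (0.55, limma adjusted p = 0.0203). TWIST2 at 3.41 to 5.72 FPKM was not called over si-NC. Between the siRNAs TWIST2 was called higher with si-RAB23-9, the side opposite to SNAI2. The difference of TWIST1 between the siRNAs, 0.35, missed the threshold (limma adjusted p = 0.0525). The fibronectin gene FN1 rose with both siRNAs (0.84 and 0.52, limma adjusted p = 0.00315 and 0.00926), and S100A4, a calcium-binding protein gene used as a mesenchymal marker, fell with si-RAB23-1 (-0.73, limma adjusted p = 0.00348) and rose with si-RAB23-9 (0.50, limma adjusted p = 0.00810). CDH2, the N-cadherin gene, was under 1 FPKM in all libraries and was not tested. Its si-RAB23-1 libraries were at 0.744 and 0.745 FPKM, from 61 and 82 reads. The si-RAB23-9 libraries were at 0.535 and 0.558 FPKM, from 50 and 49 reads. Those of si-NC were at 0.440 and 0.465 FPKM, from 52 and 45 reads. All 4 siRNA libraries thus lay above both control libraries in FPKM. The si-RAB23-9 reads lay within the range of the si-NC reads, so no CDH2 change with si-RAB23-9 can be read from these values. VIM, the vimentin gene, was at 1.81 and 1.30 FPKM with si-RAB23-1, 0.934 and 0.929 FPKM with si-RAB23-9, and 0.755 and 0.962 FPKM with si-NC, and was not called (0.45 and 0.06, limma adjusted p = 0.0924 and 0.832). FN1 and S100A4 with si-RAB23-1 held with any 1 library left out (up to 0.0353 and 0.0363). SNAI2 with si-RAB23-1 was lost without si-RAB23-1 replicate 1, either si-RAB23-9 library or si-NC replicate 2 (up to 0.0945), and TWIST1 without si-RAB23-9 replicate 2 or either si-NC library (up to 0.115). With si-RAB23-9, FN1 was lost without either si-RAB23-9 library or si-NC replicate 1 (up to 0.0727), and S100A4 without si-RAB23-9 replicate 2 or si-NC replicate 2 (up to 0.0645).

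Promoter sequence was available from RefSeq (GRCh38.p14, 250 bases before to 50 after the start) for 20 of the 34 genes, and not for CDH1, CDH3, CTNND1, EPCAM, ESRP1, ESRP2, F11R, GJB5, MARVELD3, NECTIN1, PARD3, PARD6B, SPINT2 and ST14. Shown are the 2 matched genes that rose with both siRNAs, GJA1 (chr6:121435396-121435695, plus strand) and AFDN (chr6:167827385-167827684, plus strand), a gene whose si-RAB23-1 libraries stood alone, CLDN1 (chr3:190322397-190322696, minus strand), and one whose si-RAB23-9 libraries stood alone, GJB2 (chr13:20192889-20193188, minus strand). Capitals mark matches to the AP-1 motif TGANTCA or to the E-box CAGGTG or CACCTG, the letters that SNAI and ZEB repressors bind.

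GJA1 promoter: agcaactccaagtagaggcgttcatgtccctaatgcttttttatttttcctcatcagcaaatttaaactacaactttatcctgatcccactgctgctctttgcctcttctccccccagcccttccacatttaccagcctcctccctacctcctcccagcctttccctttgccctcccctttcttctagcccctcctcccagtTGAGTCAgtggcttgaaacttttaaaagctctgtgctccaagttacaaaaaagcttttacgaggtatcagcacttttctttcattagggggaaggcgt
AFDN promoter: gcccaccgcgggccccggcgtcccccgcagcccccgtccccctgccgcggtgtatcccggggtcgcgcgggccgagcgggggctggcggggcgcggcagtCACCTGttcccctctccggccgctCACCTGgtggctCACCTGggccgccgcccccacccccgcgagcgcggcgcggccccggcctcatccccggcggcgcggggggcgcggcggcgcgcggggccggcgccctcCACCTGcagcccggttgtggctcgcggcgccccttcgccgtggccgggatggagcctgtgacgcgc
CLDN1 promoter: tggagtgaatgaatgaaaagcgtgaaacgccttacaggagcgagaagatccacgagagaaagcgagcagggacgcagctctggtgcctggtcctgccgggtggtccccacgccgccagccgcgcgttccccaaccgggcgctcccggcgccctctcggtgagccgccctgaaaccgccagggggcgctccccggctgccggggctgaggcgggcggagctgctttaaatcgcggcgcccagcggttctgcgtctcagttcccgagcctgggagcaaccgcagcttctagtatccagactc
GJB2 promoter: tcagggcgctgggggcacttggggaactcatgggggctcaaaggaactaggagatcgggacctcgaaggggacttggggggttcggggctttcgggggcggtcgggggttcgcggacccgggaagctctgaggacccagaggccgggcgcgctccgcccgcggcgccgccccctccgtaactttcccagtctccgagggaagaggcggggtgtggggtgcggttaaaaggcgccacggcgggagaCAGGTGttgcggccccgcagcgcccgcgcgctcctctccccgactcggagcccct

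GJA1 holds 1 AP-1 match, 48 bases before the start, in a promoter of 47.0% GC. AFDN holds 4 E-boxes, 150, 126, 114 and 16 bases before the start, at 83.7% GC, and GJB2 holds 1, 5 bases before the start, at 71.7% GC. The CLDN1 window, at 67.0% GC, has no match to these motifs. Among the 20 matched genes the E-box was found in 6 (OCLN, TJP1, CRB3, NECTIN4, AFDN and GJB2), against 20.6% of 27305 promoters, and the AP-1 motif in 3 (CLDN4, SPINT1 and GJA1), against 7.76% of them. The TEAD motif GGAATG or CATTCC was found in 0 of the 20, against 14.0%, and the SP1 motif GGGCGG or CCGCCC in 15, against 44.6%. Each motif was searched on both strands, and these matches describe the letters only. Genes with an E-box rose (AFDN, NECTIN4 and TJP1 with si-RAB23-1), fell (OCLN with si-RAB23-1) or were not called (CRB3).

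An siRNA can act like a miRNA on transcripts whose 3' UTR matches its seed, so 7-base words in 3' UTRs were compared with the calls. Only the longest annotated 3' UTR of each gene was examined. Over 10911 tested genes with a 3' UTR in GENCODE release 29, the word whose carriers were most often called lower relative to the others, of 13896 words with at least 200 carriers, was GACATAT with si-RAB23-1, where 27.3% of 839 carriers were called lower against 7.14% of 10072 other genes. With si-RAB23-9 it was AAGTTAA, where 18.2% of 1845 carriers were called lower against 4.29% of 9066 others. These words were picked for that difference, and could not be set against the siRNA sequences, which the sources used here do not give. Among the 34 genes none of these longest 3' UTRs held GACATAT, and AAGTTAA stood only in that of CLDN1, 1 copy at base 2299 of 2576. With si-RAB23-9 CLDN1 was at a log2 fold change of 0.02 and was not called. The site in CLDN1 is shown with the word in capitals, beside the 2 copies of GACATAT in the 3' UTR of RAB23 on chromosome 6.

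CLDN1 site: tatgcttttggAAGTTAAaatttaaatgg
RAB23 site at UTR base 667: gataaactctaGACATATattttgcaaaa
RAB23 site at UTR base 2412: tcttttgcgtaGACATATcgctgtggaat

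The genes that fell were NECTIN2, OCLN and PARD6B with si-RAB23-1, and CLDN12 and PARD6B with si-RAB23-9. None carried, in the 3' UTR examined, the word picked from the calls with the same siRNA. Outside that UTR, GACATAT occurs in 2 of 5 OCLN transcripts, and AAGTTAA in 4 of 15 CLDN12 transcripts and 1 of 2 PARD6B transcripts. AAGTTAA also occurs outside it in 2 of 2 RAB23 transcripts. Members not called lower with that siRNA had such matches too. Among them were CTNNB1 for GACATAT (51 of 56 transcripts), and MARVELD2 (8 of 9), CTNNA1 (18 of 44) and AFDN (11 of 22) for AAGTTAA. Whether these lie in other annotated 3' UTRs was not examined. The part of such matches in the changes was not tested.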

How the data were processed

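RNA-seq of 6 KYSE30 libraries was analysed, 2 each for si-RAB23-1, si-RAB23-9 and si-NC. The deposited values are FPKM per gene, as the authors made them. Per the submitters' processing notes, the tools were STAR 2.5.1b and RSEM 1.2.29, with edgeR 3.8.5, Trimmomatic 0.36 and FastQC, and the build was hg19, with no role given for each. The table's gene coordinates equal GENCODE release 29 on GRCh38 for all 58735 genes, and coordinates here are those. The gene length column, another deposited value, was used to recover reads: 100.0% of 166966 values above 0 came out whole within 0.01 of a read, giving 17211025 to 24178125 reads per library. Depth limits the genes at low levels, as for PARD6B.

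The fit used limma 3.58.1 (R 4.3.3). It took log2(FPKM + 1) of the genes that reached 1 FPKM in 2 or more libraries, with 1 mean per group over the 6 libraries, a mean-variance trend in eBayes and 3 residual degrees of freedom. Tests were two-sided and adjusted by Benjamini-Hochberg over 14352 genes. The method was checked on simulated data. The 34 members and all gene lists were chosen with earlier results of these data known. Named by rule were RAB23, all 34 members, the E-cadherin repressors, and up to 4 called genes of largest fold change per other list and comparison with si-NC. Of the genes so picked from the other lists, 1 is not reported here. CDH2, KRT5 and VIM were named after their values were seen. Genes that overlap others (CLDN7, CLDN12, CRB3, ESRP2, MARVELD3 and SPINT1) are uncertain, since the counting of shared reads is not given in the sources used here. Alternatives were another pseudocount, other filters, median-of-ratios scaling, the replicate number as a block, each library left out and voom on the recovered reads.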

Additional observations from a re-analysis of the deposited data

Results flagged for a closer look

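For 12 of the 32 tested genes the effects of the siRNAs against RAB23 differed from each other by limma's direct test. The test was si-RAB23-9 over si-RAB23-1, with adjusted p-values over all genes tested, of which 11.1% were called higher and 9.89% lower. GJB2, the connexin 26 gene, differed most (log2 fold change 0.72, limma adjusted p = 0.00524), with means of 9.47 FPKM with si-RAB23-9 and 5.36 FPKM with si-RAB23-1. The other genes higher with si-RAB23-9 were NECTIN2 (0.45), TJP3 (0.29), ST14 (0.28), CDH1 (0.21), EPCAM (0.16) and SPINT2 (0.15). Those lower with si-RAB23-9 were CLDN12 (-0.51), CLDN1 (-0.44), TJP1 (-0.37), F11R (-0.26) and CDH3 (-0.24). In each of the 12 genes the 2 libraries of one siRNA lay on one side of the 2 libraries of the other. As the genes were picked by a call on these same libraries, this adds no support to the differences. The residual RAB23 levels of the siRNAs differed by 0.11 on the same scale, a value that missed the threshold (limma adjusted p = 0.383). Of the 12 differences, those of GJB2, NECTIN2 and CLDN1 held with any 1 library left out (limma adjusted p up to 0.0315, 0.0463 and 0.0331), and each of the others was lost without at least 1 library.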

How the results depend on the processing

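Of 31 calls among the members, 6 held with any 1 library left out and under every other setting: CLDN1, F11R and GJA1 with si-RAB23-1 over si-NC, and CLDN1, NECTIN2 and GJB2 between the siRNAs. No member call reversed under any of the 13 settings. With 1 library out, its group has 1 library, assumed to vary like the others. Leaving out each library, genes called numbered 338 to 1820 with si-RAB23-1 (2209 with all libraries), 258 to 2075 with si-RAB23-9 (1902) and 705 to 2691 between the siRNAs (3019). Members called higher were 3 to 7, 0 to 6 and 2 to 7 in that order of comparisons, and lower 0 to 3, 0 to 2 and 1 to 6. Fewer libraries and degrees of freedom are part of these settings.

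Without a filter on low values, genes called were 1049, 983 and 1458 in the same order, members higher 5, 2 and 3, and members lower 0 with si-RAB23-1 and 1 with si-RAB23-9. The cause was not tested. With a mean FPKM of at least 5, members higher with si-RAB23-9 were 8 and lower 1, since PARD6B is then not tested. Voom on the recovered reads, added after seeing the data, gave 3800 calls for si-RAB23-1 with library totals and 3823 with median-of-ratios sizes; for si-RAB23-9 these were 3408 and 3411. It put members lower with si-RAB23-1 at 7 and 5, members higher with si-RAB23-9 at 11 and 11, and members lower between the siRNAs at 8 with median-of-ratios sizes. It lost none of the 31 calls and added 15 with either sizes. The other pseudocount lost 0 calls, median-of-ratios scaling 1 and the fit without a filter 16. Losses without a filter are not listed gene by gene above. The planned edgeR and DESeq2 fits on the recovered reads were not run, and voom on those reads took their place.

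Replicate numbers did not pair the libraries: deviations of same-numbered libraries correlated at 0.0610, -0.0562 and -0.0158. With the replicate block, genes called were 1655, 1437 and 2423, members higher 7, 4 and 4, and members lower 3, 2 and 5, and 6 member calls were lost.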
